A study of Homo sapiens with 16 samples.

Results

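The human genome holds many genes named ZNF for the C2H2 zinc fingers of their proteins, and their largest cluster lies on chromosome 19. The genes described here are those that lie elsewhere: 215 of the 10304 RefSeq transcripts of a PRO-seq series, chosen as every row whose symbol starts with ZNF and a number, that is not on chromosome 19 and is not ZNF395. PRO-seq maps RNA polymerases engaged on the genome by labelling nascent RNA in a nuclear run-on. The cells were Kasumi-1, an acute myeloid leukaemia line with the RUNX1-RUNX1T1 fusion, in which both alleles of SMARCA5 carried an FKBP12F36V tag. SMARCA5 is the ATPase of ISWI remodellers, which slide and space nucleosomes, and dTAG-47 directs the tagged protein to degradation. All libraries used here carry the tag, and they come from cells given 500 nM dTAG-47 for 2 h (3 libraries), 6 h (4 libraries) or 24 h (2 libraries), and from cells that got none (0 h, 5 libraries). The parental line (2 samples) is not used here, so an effect of the tag by itself was not measured. No library here comes from untagged cells given dTAG-47, so an effect of the compound alone cannot be told apart from loss of SMARCA5.

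A C2H2 zinc finger folds around a zinc ion and contacts a few bases of DNA, so that an array of fingers reads a longer site. Many of these proteins carry a KRAB domain, which binds TRIM28 and through it recruits the H3K9 methyltransferase SETDB1 and HP1 proteins, and they are best known for silencing transposable elements. Others carry a SCAN domain, through which they pair with each other, or neither domain, and act as activators, adaptors of chromatin complexes or RNA-binding proteins. Genes of the family arose by tandem duplication and often stand in clusters. Paralogues can share reads, overlapping genes cannot be told apart because the strand counted is not given in the sources used here, and 17 members overlap another listed transcript.

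Of the 215 members, 102 encode a protein with a KRAB box by a profile search of their translated reading frames, 106 encode one without, and 7 could not be classed. The longest protein of each had a median of 8 fingers, and ZNF462 had the most (33). In 10 members no finger matched the pattern used. The rule takes symbols, so it also holds ZNF503-AS2, an antisense RNA, and the read-through ZNF670-ZNF695. ZNF37BP, ZNF271, ZNF876P, ZNF815, ZNF767 and ZNF252 are annotated as transcribed pseudogenes. ZNF487P, which the symbol marks as a pseudogene, is now named ZNF487 and annotated as protein-coding. Members lay on 21 chromosomes, with 28 on chromosome 7, 27 on chromosome 16 and 17 on chromosome 1, and 72 of them stood in 11 genomic groups of at least 4 neighbours whose starts lie within 500000 bases of the next. Gene-body levels per length had a median of 2.19 CPM per kb in untreated cells, against 1.94 for the other transcripts, where CPM are TMM-scaled counts of reads by library size. Averaged over all libraries ZNF267 was highest at 10.5 CPM per kb, followed by ZNF467 (9.31) and ZNF7 (8.81), and the lowest were ZNF678 (0.396), ZNF630 (0.365) and ZNF286A (0.333). Together the members took 1.58% to 1.63% of gene-body reads in treated libraries and 1.59% to 1.70% in untreated ones.

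A library held 11182894 to 34209362 reads in gene bodies and 1667950 to 7171601 near promoters. Each is named by time, a letter (A or B) and a run, after a code in its header that no label explains. Run 1 held both letters at 0 h and library B at 2 h, run 2 held A and B at every time, and run 3 held library A at 0 h and both letters at 6 h. All 24 h libraries are thus of run 2. The gene-body change at 2 h differed between run 1 and run 2 for 62 of 215 members (28.8%), as for 2919 of 10304 transcripts (28.3%). Whether this came from the untreated libraries of run 1 or from its library at 2 h was not tested. For some members named below the untreated libraries of run 1 stood apart. The models below hold a term for the run. It takes up differences in level between runs, but not a change that differs between runs. Of the lineage markers fixed for the check, 7 of 10 myeloid ones were listed, led by KIT (3799 ± 532 CPM, SD, n = 5, at 0 h) and MPO (979.9 ± 115), and of 12 markers of other types 2 were listed (KLF1 and EPCAM), while the rest are not analysed here. The summed level of these 2 was 41.2 to 57.7, 32.2 to 34.2, 30.7 to 37.4 and 31.0 to 38.8 CPM at 0, 2, 6 and 24 h, and EPCAM fell at each time. The myeloid list had 1 rise and 1 fall at 2 h, 0 and 1 at 6 h and 4 and 1 at 24 h (CD33, CD34, MPO and CEBPA rose, KIT fell), with a summed level of 4591 to 5748, 3920 to 4165, 3983 to 4705 and 5320 to 5376 CPM. The part of these markers in the members' changes was not tested. SMARCA5 transcription did not pass the test at 2, 6 or 24 h (log2 changes of -0.27 ± 0.12, -0.11 ± 0.12 and -0.18 ± 0.14 at 2, 6 and 24 h), which does not report on the protein. In such bulk data fewer transcribing cells and less transcription per cell cannot be told apart. The labels do not say that libraries came from separate cultures, so p-values measure the spread between these libraries, which may be technical.

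Transcription of the members moved in both directions after SMARCA5 was targeted. At 2 h, 37 members rose and 48 fell in gene bodies, which is 39.5% of the 215 members against 38.6% of all 10304 transcripts (edgeR's quasi-likelihood test with Benjamini-Hochberg adjustment over all transcripts, threshold 0.05). Members that rose made up 17.2%, against 19.7% of all transcripts, and those that fell 22.3%, against 18.9%. At 6 h, 31 rose and 36 fell (31.2%, against 26.8% of all transcripts). At 24 h, 24 rose and 27 fell (23.7%, against 19.8%). Rises and falls each made up 13.5% and 13.4% of all transcripts at 6 h, and 10.8% and 9.08% at 24 h. The members' shares were thus near those of all transcripts at each time.

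The median member lay near 0. The median log2 change was -0.01, -0.03 and -0.01 at 2, 6 and 24 h, against 0.01 at each time over all transcripts. Among members that passed the test, rises had a median of 0.42, 0.41 and 0.48 and falls of -0.47, -0.49 and -0.60. Few changes reached 2-fold: 2 members fell that far at 2 h, 3 fell and 1 rose at 6 h, and 3 fell and 1 rose at 24 h. Against 0 h, 107 members (49.8%) passed the test at 1 time or more, against 49.1% of all transcripts, and none in both directions. Each of the 85 members called at 2 h changed in the same direction in run 1 and in run 2, but the median size was 0.60 on the log2 scale in run 1 and 0.31 in run 2. The 67 called at 6 h had the same direction in run 3 and run 2, at similar sizes (0.40 in both). Both sets were called on these same libraries, which favours a shared direction, so this is no independent check. The count at 2 h was 41 without library B of run 1 at 2 h. At 6 h it was 40 without the untreated library of run 3, and 42 or 40 without library A or B of run 2 at 6 h. At 24 h it was 18 or 15 without library A or B.

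**Figure D1:**
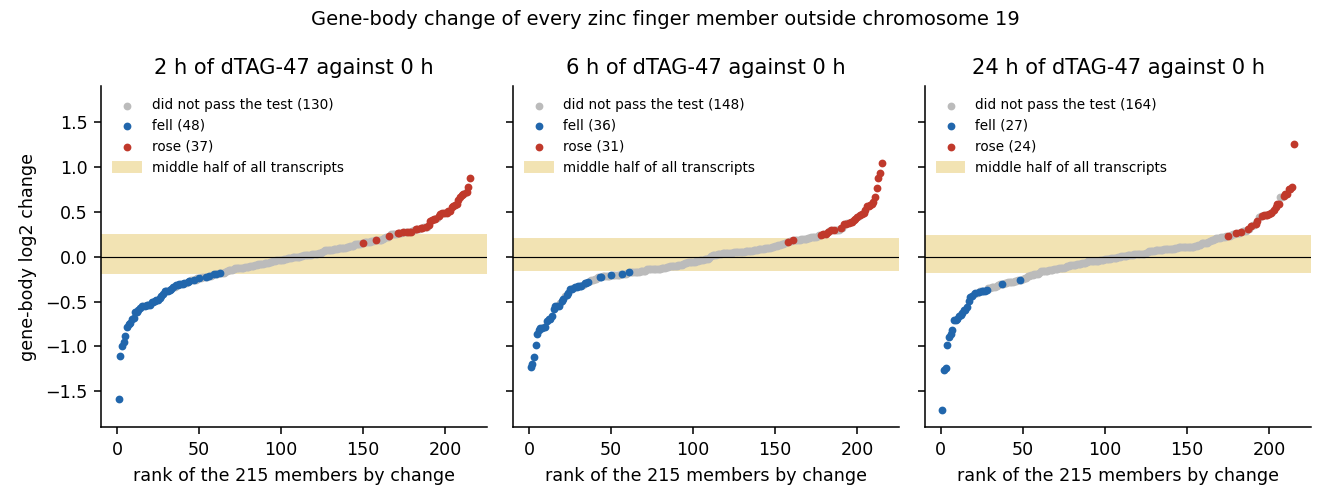
Gene-body log2 change of each of the 215 members against 0 h, ranked from lowest to highest, at 2, 6 and 24 h. Blue points fell and red points rose by edgeR's test, grey points did not pass, and the yellow band spans the lower to the upper quartile of all 10304 transcripts. The lowest point at 2 and 24 h is ZNF711 at -1.59 and -1.71.

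The largest fall at 2 and 24 h was that of ZNF711 (NM_021998, chromosome X, 84498997 to 84528368 on hg19), which binds CpG-island promoters together with the demethylase PHF8 and is mutated in X-linked intellectual disability. Its gene body held 40.6, 37.9, 23.3, 21.1 and 21.9 CPM at 0 h, 7.5, 10.7 and 10.6 CPM at 2 h, 10.9, 12.9, 10.6 and 10.6 CPM at 6 h and 7.19 and 8.94 CPM at 24 h, each time listed here and below in the order of the runs, A before B. All treated libraries were below all untreated ones, and the untreated libraries of run 1 were the highest. The log2 changes were -1.59 ± 0.21, -1.12 ± 0.20 and -1.71 ± 0.27 at 2, 6 and 24 h (adjusted p = 2.13e-04, 0.00167 and 0.00108), and no alternative ended any of these calls. Its promoter-proximal changes (-0.997 ± 0.34, -0.66 ± 0.33 and -0.93 ± 0.44) did not pass the test. Within run 1 the 2 h change was -2.38 and within run 2 -1.06, a difference between runs with an adjusted p of 0.00108.

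ZNF678 (NM_178549, chromosome 1, 227751220 to 227850164), a KRAB member with 14 fingers, fell at each time. Its gene body held 72.1, 63.7, 58.1, 55.4 and 52.7 CPM at 0 h, 31.1, 33.7 and 33.2 CPM at 2 h, 26.4, 29.2, 19 and 20.8 CPM at 6 h and 27.1 and 25.3 CPM at 24 h. Treated and untreated libraries did not overlap. The log2 changes were -0.95 ± 0.10, -1.22 ± 0.10 and -1.24 ± 0.13 at 2, 6 and 24 h (adjusted p = 4.96e-05, 5.50e-06 and 5.38e-05), and the run 1 and run 2 values at 2 h (-1.13 and -0.76) were closer than for ZNF711.

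ZNF485 (NM_145312, chromosome 10, 44101855 to 44113352), also of the KRAB class, had 29.9, 23.7, 21, 24.3 and 24.6 CPM at 0 h, 15.1, 13 and 13.9 CPM at 2 h, 8.73, 9.36, 13.4 and 11.3 CPM at 6 h and 13.5 and 13.5 CPM at 24 h. Each treated library was lower than each untreated one, and the run 2 libraries at 6 h were the lowest. Its changes were -0.74 ± 0.12, -1.19 ± 0.12 and -0.70 ± 0.15 at 2, 6 and 24 h (adjusted p = 6.68e-04, 3.28e-05 and 0.0062). ZNF746 (NM_001163474, chromosome 7, 149169884 to 149194898), known as PARIS, is a KRAB repressor of PPARGC1A and a substrate of the ubiquitin ligase parkin. It held 56.6, 62.1, 62.1, 60.8 and 63 CPM at 0 h, 42.8, 43.2 and 37.5 CPM at 2 h, 36.3, 40.03, 34.7 and 37.8 CPM at 6 h and 33.4 and 32.6 CPM at 24 h, with no overlap between treated and untreated libraries. Its changes were -0.57 ± 0.08, -0.71 ± 0.08 and -0.89 ± 0.10 at 2, 6 and 24 h (adjusted p = 2.98e-04, 5.31e-05 and 1.19e-04), and its untreated libraries of run 1 lay close to the others.

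Other large falls kept the same order of groups. ZNF362 averaged 143 ± 32.9, 85 ± 3.54, 79.3 ± 4.9 and 71.5 ± 5.39 CPM at 0, 2, 6 and 24 h (SD, n = 5, 3, 4 and 2), with changes of -0.69 ± 0.11, -0.69 ± 0.10 and -0.82 ± 0.13 at 2, 6 and 24 h (adjusted p = 4.76e-04, 5.07e-04 and 0.00119). ZNF280B was at 36.4 ± 5.13, 24.7 ± 3.42, 19 ± 1.32 and 18.9 ± 3.17 CPM at the same times, with changes of -0.54 ± 0.13, -0.99 ± 0.13 and -0.98 ± 0.17 at 2, 6 and 24 h (adjusted p = 0.00762, 2.30e-04 and 0.00207). For these members every treated library again lay below every untreated one. ZNF662 and ZNF518B fell at 2 h (-0.88 ± 0.11 and -0.99 ± 0.15), 6 h (-0.79 ± 0.11 and -0.80 ± 0.14) and 24 h (-0.66 ± 0.13 and -0.69 ± 0.18). At 24 h ZNF518B and ZNF485 were not called without either 24 h library, nor ZNF662 without library B. ZNF385C, which overlaps NKIRAS2, had the second largest fall at 24 h (a log2 change of -1.26 ± 0.18), and ZNF630 fell as well (-0.86 ± 0.18), although ZNF630 was not called at 24 h without either 24 h library.

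The call of ZNF35 rested on run 1. ZNF35 and ZNF197, a KRAB and SCAN protein that the von Hippel-Lindau protein binds, lie near each other on chromosome 3 (44690233 to 44702283 and 44666511 to 44689963). ZNF35 had 30.5, 30.4, 5.2, 5.43 and 6.94 CPM at 0 h, 5.6, 5.57 and 4.14 CPM at 2 h, 3.62, 3.83, 5.53 and 4.65 CPM at 6 h and 5.72 and 6.26 CPM at 24 h. Only the untreated libraries of run 1 were far above the rest. The 2 h change was -1.11 ± 0.37 (adjusted p = 0.0297), -2.44 within run 1 and -0.13 within run 2, and it was not called without run 1. ZNF197 had 64.5, 66.2, 27.2, 30.7 and 26.1 CPM at 0 h, 26.7, 20.3 and 22.6 CPM at 2 h, 18.3, 18.7, 14.3 and 17.7 CPM at 6 h and 19.8 and 22.2 CPM at 24 h, with the same libraries high, and fell at 2 h (-1.29 in run 1 and -0.43 in run 2) and also at 6 h (-0.78 ± 0.15, adjusted p = 0.00251), within run 3 (-0.71) as in run 2 (-0.64).

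Among the rises, that of ZNF774 (NM_001004309, chromosome 15, 90895477 to 90904715) was the largest at 24 h. Its gene body held 2.74, 2.67, 6.49, 5.99 and 5.99 CPM at 0 h, 6.41, 5.27 and 6.21 CPM at 2 h, 10.8, 11.4, 10.4 and 7.91 CPM at 6 h and 12.2 and 13.7 CPM at 24 h. The 6 h and 24 h libraries were above all untreated ones, while the 2 h libraries lay between the lowest and the highest untreated ones. The changes were 0.43 ± 0.23, 0.93 ± 0.23 and 1.25 ± 0.27 at 2, 6 and 24 h (adjusted p = 0.157, 0.00967 and 0.00646), so the 2 h change did not pass the test, and the 24 h call was lost without library B. ZNF703, named after its values were seen, was the member that rose at least 2-fold at 6 h (1.05 ± 0.36, adjusted p = 0.0472), from few reads (2.18 ± 0.872 CPM at 6 h, SD, n = 4, and 0.965 ± 0.275 CPM at 0 h, n = 5).

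ZNF862 (NM_001099220, chromosome 7, 149535509 to 149564568) had 37, 34.1, 57.6, 57.7 and 56.2 CPM at 0 h, 82, 66.2 and 76.9 CPM at 2 h, 80.5, 84.2, 86.5 and 83.9 CPM at 6 h and 85.7 and 87.5 CPM at 24 h. All treated libraries were above all untreated ones, and the untreated libraries of run 1 were the lowest. The changes were 0.68 ± 0.13, 0.66 ± 0.13 and 0.76 ± 0.16 at 2, 6 and 24 h (adjusted p = 0.00201, 0.00333 and 0.00604), with 1.21 in run 1 and 0.31 in run 2 at 2 h. The 24 h call was lost without either 24 h library. ZNF425, a KRAB protein of 19 fingers, had 40.1, 35, 33.5, 36.6 and 45 CPM at 0 h, 57.2, 51 and 55.3 CPM at 2 h, 57.4, 52.5, 55.6 and 57.1 CPM at 6 h and 64.6 and 53.2 CPM at 24 h, again without overlap, and changes of 0.56 ± 0.09, 0.52 ± 0.09 and 0.69 ± 0.11 at 2, 6 and 24 h (adjusted p = 7.91e-04, 0.00157 and 0.00146). Its 2 h change was 0.61 in run 1 and 0.60 in run 2.

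At 2 h the largest rise was that of ZNF213, a KRAB and SCAN member (13 ± 2.34 CPM at 2 h, SD, n = 3, and 7.78 ± 2.29 CPM at 0 h, n = 5; 0.88 ± 0.16, adjusted p = 0.00123). ZNF713 (0.71 ± 0.10 at 2 h and 0.76 ± 0.10 at 6 h), ZNF2 (0.70 ± 0.13 at 2 h) and ZNF775 (0.67 ± 0.16 at 2 h) also rose. ZNF775 was not called without run 1 or without its 2 h library. ZNF311 rose at 6 h (0.88 ± 0.10, adjusted p = 7.29e-05), with 15.3, 16.3, 17.7 and 17.8 CPM at 6 h and 12.6, 12.2, 8.29, 9.21 and 9.4 CPM at 0 h, without overlap. ZNF692, a factor that binds the AICAR response element, had changes of 0.47 ± 0.14, 0.57 ± 0.14 and 0.70 ± 0.17 at 2, 6 and 24 h (adjusted p = 0.0171, 0.00966 and 0.0112), of which the 2 h one was not called without run 1, the 6 h one without the untreated library of run 3 and the 24 h one without either 24 h library. ZNF697 rose at each time (0.41 ± 0.08, 0.39 ± 0.08 and 0.59 ± 0.10), but was not called at any time in a model with no run term.

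**Figure D2:**
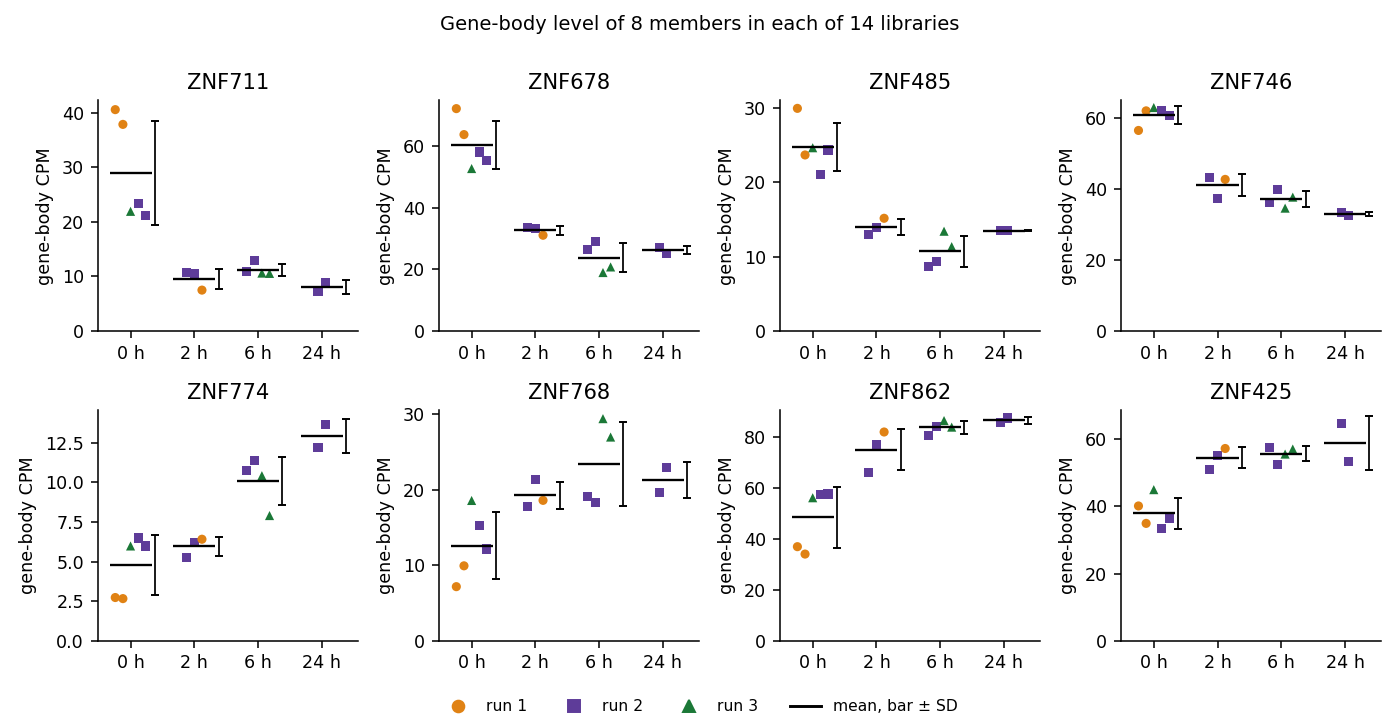
Gene-body level (CPM) of 4 members that fell (top row) and 4 that rose (bottom row) in each of the 14 libraries at 0, 2, 6 and 24 h. Symbols mark the run, the line is the mean and the bar ± SD (n = 5, 3, 4 and 2); ZNF746 shows treated libraries at or below 43.2 CPM and untreated ones at or above 56.6, and for ZNF711, ZNF774, ZNF768 and ZNF862 the untreated libraries of run 1 lie apart from those of run 2.

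Counts of rises and falls are given by genomic group next. On chromosome 16, 14 members from ZNF48 to ZNF267 span 30389633 to 31928627 on hg19. In this group 6 rose and 1 fell at 2 h, 5 rose and 1 fell at 6 h, and 6 rose and 0 fell at 24 h. Those called made up 50%, 42.9% and 42.9% of the 14, against 38.6%, 26.8% and 19.8% of all transcripts. The group's median change was 0.28, 0.16 and 0.20 at 2, 6 and 24 h, against 0.01 over all transcripts at each time. All transcripts of up to 14.2 kb had medians of 0.20, 0.10 and 0.14, and 29.2% of them rose and 5.37% fell at 2 h. Apart from ZNF48 (21.8 kb), the members of the group that rose were 2.59 to 6.98 kb long. The part of length in these rises was not tested. The members that rose were ZNF48, ZNF768, ZNF764, ZNF785 and ZNF689 at each time and ZNF747 at 2 and 24 h, all of them between 30389633 and 30621682. ZNF771 and ZNF688, which stand between them, had changes of -0.08 ± 0.08 and 0.02 ± 0.15 at 2 h and did not pass the test. At the far end ZNF267, the member with the highest level per length, fell at 2 h (-0.29 ± 0.10, adjusted p = 0.0311) and 6 h (-0.33 ± 0.09, adjusted p = 0.0218), but the calls at both times were lost without the untreated library of run 3.

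ZNF768, which binds MIR elements in expressed genes, had 7.18, 9.93, 15.2, 12.2 and 18.6 CPM at 0 h, 18.6, 17.8 and 21.3 CPM at 2 h, 19, 18.4, 29.4 and 27 CPM at 6 h and 19.6 and 23 CPM at 24 h. Untreated and treated libraries overlapped at 2 and 6 h, since the untreated library of run 3 was high, but within each run every treated library was above every untreated one. The changes were 0.78 ± 0.15, 0.59 ± 0.15 and 0.77 ± 0.18 at 2, 6 and 24 h (adjusted p = 0.00164, 0.0118 and 0.010), and the 24 h call was lost without library B and the 6 h call without the untreated library of run 3. ZNF48, which overlaps SEPT1, had 77.3, 82.2, 121, 113 and 137 CPM at 0 h, 142, 136 and 142 CPM at 2 h, 152, 152, 197 and 174 CPM at 6 h and 190.5 and 174 CPM at 24 h. The untreated libraries of run 1 were the lowest, and in run 3 the levels were the highest of their time. Its changes were 0.48 ± 0.10, 0.48 ± 0.10 and 0.75 ± 0.12 at 2, 6 and 24 h (adjusted p = 0.00216, 0.00325 and 8.74e-04). ZNF764 had 13.8, 13.6, 13.3, 13.2 and 18.7 CPM at 0 h, 18.3, 19.8 and 20.3 CPM at 2 h, 21.5, 21.5, 27.9 and 22.3 CPM at 6 h and 21.1 and 21.2 CPM at 24 h, with the untreated library of run 3 above the others, and changes of 0.49 ± 0.10, 0.56 ± 0.10 and 0.59 ± 0.13 at 2, 6 and 24 h (adjusted p = 0.0028, 0.00168 and 0.00604). At 24 h it was not called without either 24 h library, and with no run term the 2 h calls of ZNF768, ZNF48 and ZNF764 were lost. ZNF785, ZNF747 and ZNF689 rose at 2 h by 0.55 ± 0.12, 0.51 ± 0.16 and 0.35 ± 0.10.

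The promoters of these 6 members are shown because the genes stand near each other and rose, and those of ZNF711 and ZNF678 because they had the largest falls. Each is the 200 bases before the RefSeq start on GRCh38.p14, which need not be the start used for the hg19 counts, written 5′ to 3′ on the strand of the gene. Capitals mark CCGGAAG (the core of ETS factor sites), GGGCGG (the GC box of Sp factors) and CCAAT (the site of NF-Y), on either strand.

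ZNF48, chr16:30378112-30378311, plus strand: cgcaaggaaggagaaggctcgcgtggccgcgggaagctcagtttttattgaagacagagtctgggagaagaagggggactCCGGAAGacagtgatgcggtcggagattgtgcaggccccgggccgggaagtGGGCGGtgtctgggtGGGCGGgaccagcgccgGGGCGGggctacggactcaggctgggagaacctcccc

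ZNF768, chr16:30526567-30526766, minus strand: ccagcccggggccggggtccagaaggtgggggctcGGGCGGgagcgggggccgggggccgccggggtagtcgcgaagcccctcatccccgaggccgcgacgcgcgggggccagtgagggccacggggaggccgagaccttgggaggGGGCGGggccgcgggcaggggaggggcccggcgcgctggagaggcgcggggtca

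ZNF747, chr16:30534859-30535058, minus strand: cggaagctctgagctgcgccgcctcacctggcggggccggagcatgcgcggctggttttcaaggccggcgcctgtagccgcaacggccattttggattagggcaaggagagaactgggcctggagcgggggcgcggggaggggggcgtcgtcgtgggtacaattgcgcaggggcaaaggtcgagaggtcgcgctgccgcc

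ZNF764, chr16:30558375-30558574, minus strand: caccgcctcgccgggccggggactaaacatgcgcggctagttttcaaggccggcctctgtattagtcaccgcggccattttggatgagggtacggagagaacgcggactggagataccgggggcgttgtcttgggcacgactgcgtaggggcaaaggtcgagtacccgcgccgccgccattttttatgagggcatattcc

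ZNF785, chr16:30585698-30585897, minus strand: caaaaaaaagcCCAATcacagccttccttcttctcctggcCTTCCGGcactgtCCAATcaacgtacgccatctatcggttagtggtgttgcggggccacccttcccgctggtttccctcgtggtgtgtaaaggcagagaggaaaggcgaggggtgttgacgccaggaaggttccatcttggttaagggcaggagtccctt

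ZNF689, chr16:30610434-30610633, minus strand: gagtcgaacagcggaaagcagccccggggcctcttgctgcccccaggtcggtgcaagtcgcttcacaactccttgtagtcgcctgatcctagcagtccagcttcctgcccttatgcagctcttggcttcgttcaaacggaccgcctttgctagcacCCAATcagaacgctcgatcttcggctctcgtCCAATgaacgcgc

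ZNF711, chrX:85243791-85243990, plus strand: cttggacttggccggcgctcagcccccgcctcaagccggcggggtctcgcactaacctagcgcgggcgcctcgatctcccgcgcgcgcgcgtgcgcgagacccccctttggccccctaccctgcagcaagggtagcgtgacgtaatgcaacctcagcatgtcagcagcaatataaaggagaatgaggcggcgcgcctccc

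ZNF678, chr1:227563356-227563555, plus strand: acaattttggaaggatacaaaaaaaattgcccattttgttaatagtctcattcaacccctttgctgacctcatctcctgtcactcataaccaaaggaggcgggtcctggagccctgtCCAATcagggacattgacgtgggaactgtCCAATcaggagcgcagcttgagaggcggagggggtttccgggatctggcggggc

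None of the 3 motifs was present in all 6 neighbours. ZNF48 held 1 ETS match and 3 GC boxes and ZNF768 held 2 GC boxes, ZNF785 held 1 ETS match and 2 CCAAT boxes, ZNF689 held 2 CCAAT boxes, and ZNF747 and ZNF764 held none of the 3. ZNF678 held 2 CCAAT boxes and ZNF711 none. GC content ran from 51.5% in ZNF678 to 82.5% in ZNF768. A promoter was available for 177 members. For 128 of them, 30 bases just after the start were found in a GENCODE transcript of the same symbol. The ETS core was held by 27.7% of the 177, against 16.5% of 8034 other listed genes and 8.06% of all 27305 promoters. It was present in 6 of 29 members that rose at 2 h, 12 of 40 that fell and 31 of 108 that did not pass. GC boxes were in 55.4% of members, 65.9% of other listed genes and 39.9% of all promoters, and CCAAT in 69 of 177 members, 2571 of 8034 other listed genes and 28.9% of all promoters. Of the other motifs searched, TGTGGTT (RUNX) was in 5.08% of members, 1.87% of other listed genes and 2.84% of all promoters, GCATGCGC (NRF1) in 6.78%, 5.15% and 2.64%, and CACGTG (E-box) in 5.08%, 8.51% and 5.62%. All were searched on both strands in the same 200 bases, and in 2 member promoters matches of different motifs overlapped. A match is a string of letters and no evidence of binding.

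On chromosome 7, 11 members from ZNF786 to ZNF862 (148766733 to 149564568) moved in both directions. There 3 rose and 3 fell at 2 h, 2 and 2 at 6 h, and 3 and 3 at 24 h, with medians of 0.01, -0.04 and -0.05. Those called made up 54.5%, 36.4% and 54.5% of the 11, against 38.6%, 26.8% and 19.8% of all transcripts. Whether these shares differ was not tested. ZNF786 and ZNF425 at the proximal end and ZNF862 at the distal end rose, whereas ZNF783, ZNF777 and ZNF746 in the middle fell. At 24 h ZNF786 was at 74.8 and 69.6 CPM and at 0 h at 38.3, 38.1, 56.9, 55.3 and 55.5 CPM (0.46 ± 0.13, adjusted p = 0.0286). ZNF783 was at 67.4 and 62.4 CPM at 24 h and 95.4, 91, 84.4, 86.4 and 88.9 CPM at 0 h (-0.37 ± 0.09, adjusted p = 0.0124). ZNF398, ZNF282, ZNF212, ZNF767 and ZNF467 lay among them and did not pass the test at any time.

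**Figure D3:**
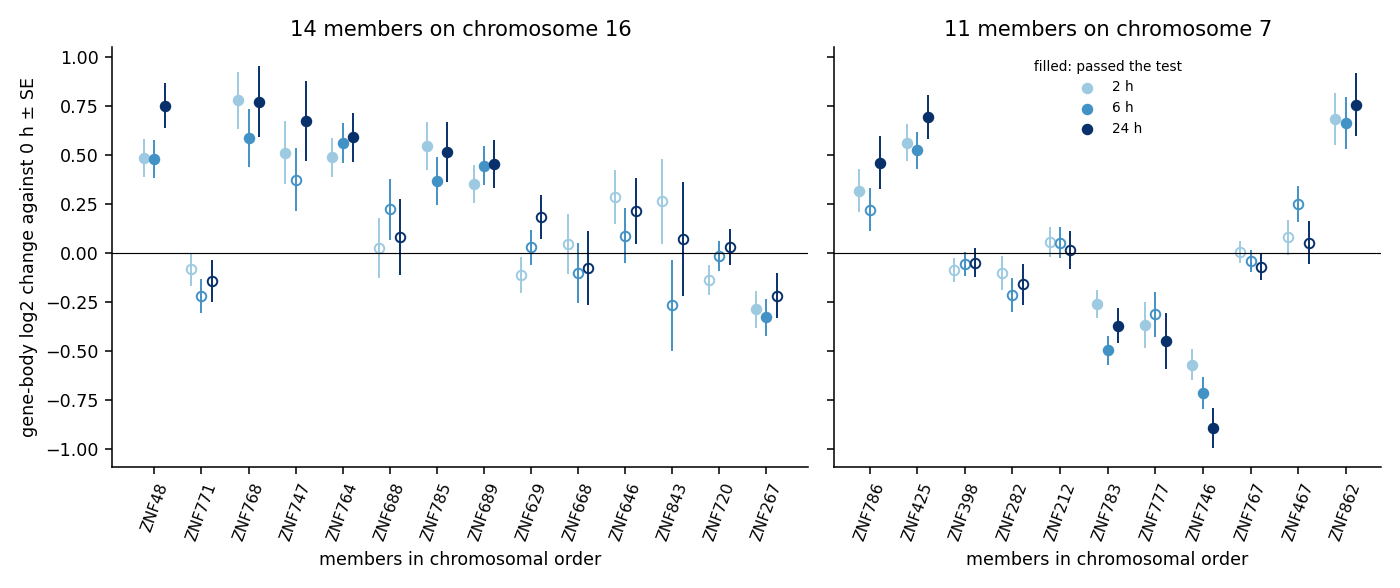
Gene-body log2 change against 0 h (± SE) at 2, 6 and 24 h of the 14 members of the chromosome 16 group and the 11 of the chromosome 7 group, in chromosomal order and not to scale. Filled points passed edgeR's test; on chromosome 16 the filled points above 0 stop at ZNF689, and on chromosome 7 the falls of ZNF783, ZNF777 and ZNF746 stand between rises.

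The other groups were smaller. The 7 members of a group on chromosome 8 held 3 rises and 0 falls at 2 h (ZNF251, ZNF517 and ZNF7), 1 rise at 6 h (ZNF251) and 3 rises at 24 h (ZNF251, ZNF517 and ZNF252). The 6 members of a group on chromosome 7 from ZNF736 to ZNF92 held 0 rises and 2 falls at 2 h (ZNF736 and ZNF107). On the X chromosome ZNF41 and ZNF81 rose and ZNF182 and ZNF630 fell at 6 h, which is every member of a group of 4. Members scattered outside groups had 21 rises and 38 falls of 143 at 2 h, 18 and 28 at 6 h, and 11 and 20 at 24 h. By chromosome, 0 of the 12 members on chromosome 3 rose and 6, 5 and 4 fell at 2, 6 and 24 h, and 0 of the 6 on chromosome 4 rose and 4, 3 and 2 fell. On chromosome 16 as a whole 8 of 27 rose and 2 fell at 2 h. Chromosomes 3 and 4 were picked out after their values were seen. Over all transcripts 19.7% rose and 18.9% fell at 2 h, 13.5% and 13.4% at 6 h, and 10.8% and 9.08% at 24 h.

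Length went with the direction of change, in the members as in other transcripts. The members were split by length into 3 ranges. Of the 72 shortest (up to 14.2 kb) 16 rose and 10 fell at 2 h, and of the 72 longest (from 28.96 kb) 6 rose and 25 fell. All transcripts of those lengths gave 1011 rises and 186 falls of 3461, and 546 rises and 1474 falls of 4667. Falls made up 13.9% of the shortest members, against 5.37% of all transcripts of that length, and 34.7% of the longest members, against 31.6%. The longest members had 9 rises and 17 falls at 6 h (12.5% and 23.6%) and 8 and 13 at 24 h (11.1% and 18.1%). Of all transcripts of that length 12.5% rose and 18.8% fell at 6 h, and 9.21% and 13.4% at 24 h. Whether the share of falls among short members differs from that of other transcripts was not tested.

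**Figure D4:**
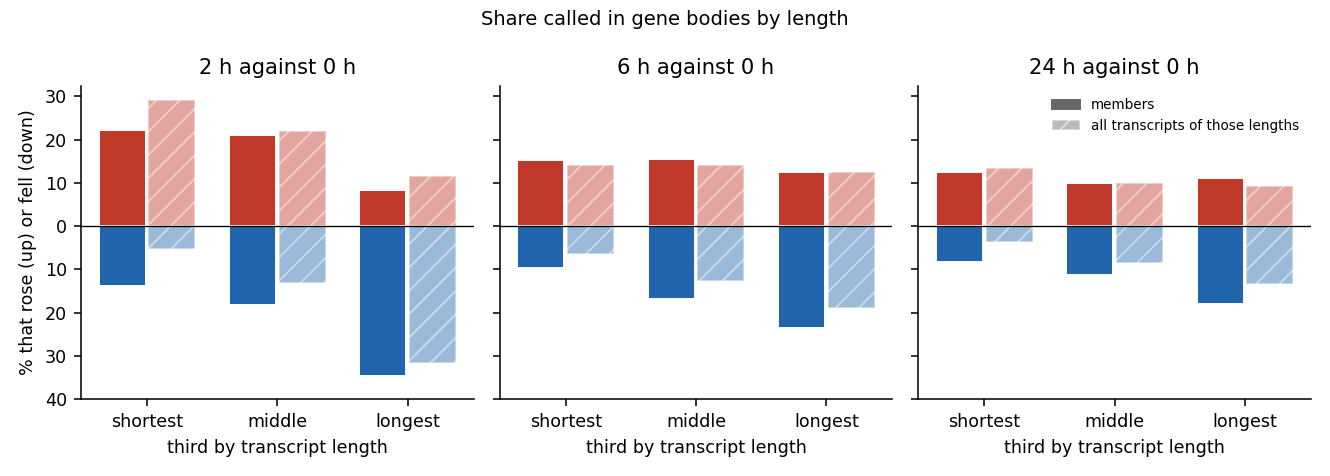
Share of members (solid bars) and of all transcripts in the same length ranges (hatched bars) that rose (upward) or fell (downward) in gene bodies at 2, 6 and 24 h, by length range, cut at 14.2 and 28.96 kb. At 2 h 8.33% of the longest members rose and 34.7% fell, against 22.2% and 13.9% of the shortest.

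Members were also split by protein class. Of the 102 KRAB members 20 rose and 20 fell at 2 h, 17 and 19 at 6 h, and 13 and 13 at 24 h. Of the 106 without a KRAB box 17 rose and 28 fell at 2 h, 13 and 17 at 6 h, and 10 and 14 at 24 h. Called members thus made up 39.2% of the KRAB class at 2 h and 42.5% of the rest, and whether these shares differ was not tested. For the genes of the KRAB silencing machinery, 3 of 19 rose and 7 fell at 2 h, 2 and 3 at 6 h, and 0 and 2 at 24 h, with medians of -0.03, 0.03 and -0.02. Those called were 52.6%, 26.3% and 10.5% of the list, against 38.6%, 26.8% and 19.8% of all transcripts. TRIM28, the bridge between KRAB and the silencing enzymes, rose at 2 h (0.27 ± 0.09), and SETDB1 had a change of -0.01 ± 0.08 that did not pass. The HP1 gene CBX3 fell at 2 h (-0.44 ± 0.09) and 6 h (-0.29 ± 0.09), whereas CBX1 rose at 2 h (0.27 ± 0.09) and CBX5 at 6 h (0.25 ± 0.08). HDAC2 fell at each time (-0.48 ± 0.10, -0.34 ± 0.10 and -0.46 ± 0.13). Of the subunits of the HUSH silencing complex, MPHOSPH8 rose at 2 and 6 h (0.33 ± 0.09 and 0.27 ± 0.09), whereas FAM208A (TASOR) and PPHLN1 (periphilin) fell at 2 h (-0.24 ± 0.09 and -0.29 ± 0.09). MORC2, a partner of the complex, fell at 2 and 6 h (-0.27 ± 0.07 and -0.22 ± 0.07).

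Among 12 measured DNA-binding regulators without a KRAB box, 1 rose and 4 fell at 2 h, 1 and 3 at 6 h, and 0 and 4 at 24 h. Those called were 41.7%, 33.3% and 33.3% of the list, against 38.6%, 26.8% and 19.8% of all transcripts. Besides ZNF711, the falls at each time were those of ZNF292, a large protein mutated in intellectual disability, and ZNF148, which binds GC-rich promoters. ZNF292 had 311, 266, 299.8, 304 and 249 CPM at 0 h, 189.8, 219.9 and 218 CPM at 2 h, 243, 231, 202 and 209.9 CPM at 6 h and 201 and 211 CPM at 24 h. All treated libraries were below all untreated ones, and the changes were -0.51 ± 0.06, -0.34 ± 0.06 and -0.56 ± 0.08 at 2, 6 and 24 h (adjusted p = 1.18e-04, 0.0017 and 3.67e-04). ZNF148 had changes of -0.31 ± 0.06, -0.20 ± 0.06 and -0.26 ± 0.08, but its calls were lost at every time with no run term, and at 6 and 24 h without any of several single libraries. ZNF335, a subunit of H3K4 methyltransferase complexes and a microcephaly gene, was the member that rose (0.58 ± 0.10 at 2 h, 102, 88.5 and 89.98 CPM at 2 h and 54.2, 77.4, 63.3, 61.1 and 70.6 CPM at 0 h). Its call at 6 h (0.29 ± 0.10) was lost without most single libraries. ZNF143, a promoter factor, passed the test at 24 h (-0.38 ± 0.10, adjusted p = 0.0172), with changes of -0.10 ± 0.08 at 2 h and -0.14 ± 0.08 at 6 h. Between 24 h and 2 h its adjusted p was 0.156. ZNF462, the member with the most fingers, fell at 2 h (-0.22 ± 0.07, adjusted p = 0.0194). The list's median changes were -0.11, -0.09 and -0.05.

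Of 6 measured adaptors of chromatin complexes, ZNF592 rose and ZNF644 and ZNF827 fell at 2 h. ZNF592 and ZNF687 belong to the ZMYND8 module, and ZNF592 changed by 0.18 ± 0.05 at 2 h and 0.17 ± 0.05 at 6 h, calls that run 2 alone did not give and that were lost without single libraries (library B of run 1 at 2 h, any 6 h library at 6 h). ZNF644, a partner of the H3K9 methyltransferases EHMT1 and EHMT2, changed by -0.38 ± 0.11 at 2 h (-0.77 in run 1 and -0.12 in run 2) and was not called without run 1. Of 9 members with roles in RNA, ribosomes or mitosis, ZNF326, which couples splicing to elongation in the DBIRD complex, fell at 2 h (-0.60 ± 0.09) and 6 h (-0.36 ± 0.09), at 6 h not without the untreated library of run 3. ZNF385A, an RNA-binding protein first described in mouse haematopoietic cells, rose at 24 h (0.49 ± 0.13, adjusted p = 0.0176), but not without either 24 h library. ZNF598, which marks collided ribosomes, and ZNF638, a partner of the HUSH complex, had changes of 0.33 ± 0.15 and -0.19 ± 0.08 at 2 h and passed at no time. The medians of these lists were 0.01, -0.02 and 0.00 for the adaptors and 0.01, 0.04 and -0.01 for the RNA list. Called members made up 50%, 33.3% and 16.7% of the adaptors and 11.1% of the RNA list at each time. Of all transcripts 38.6%, 26.8% and 19.8% were called at 2, 6 and 24 h. Of 11 well-studied KRAB or SCAN members 1 rose and 3 fell at 2 h, 0 and 3 at 6 h, and 0 and 1 at 24 h. Those called made up 36.4%, 27.3% and 9.09% of this list. ZNF24 (-0.53 ± 0.14) and ZNF268 (-0.48 ± 0.13) fell at 2 h and ZNF174 rose (0.30 ± 0.10), and none of these calls was made without run 1. The list's medians were -0.04, 0.01 and 0.03.

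Near promoters fewer members were called, and most of them fell. The promoter-proximal region holds polymerases that have started and often pause, so its reads and those of the gene body can move apart. Of 210 members that passed the expression filter there, 2 rose and 12 fell at 2 h (6.67%, against 4.61% of 9980 transcripts). The falls made up 5.71% of members, against 2.17% of transcripts, and the rises 0.952%, against 2.43%. At 6 h 2 rose and 6 fell (3.81%, against 2.24% of transcripts, of which 0.802% rose and 1.44% fell). At 24 h 1 rose and 4 fell (2.38%, against 1.41% of transcripts, of which 0.631% rose and 0.782% fell). The members' median changes were -0.02, -0.03 and -0.01. Of the 5 members without a test here (ZNF124, ZNF407, ZNF512B, ZNF713 and ZNF721) no level is given.

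These counts changed when single libraries were left out. At 2 h none of the 12 falls was called without library B of run 1 at 2 h (2 calls, both rises). The 2 h count was 4 without library A of run 2 at 2 h, 7 without library B of run 2 at 2 h or untreated library A of run 2, 8 without untreated library B of run 2, and 9 without library B of run 2 at 6 h. At 6 h none of the 6 falls was called without the untreated library of run 3 (1 call). The 6 h count was 1 and 3 without library B or A of run 2 at 6 h, 5 without untreated library A or B of run 2, 15 without untreated library A of run 1, and 13 without library A of run 3 at 6 h. At 24 h 0 members were called without either 24 h library, untreated library A, 2 h library B or either 6 h library of run 2. The 24 h count was 1 without untreated library B of run 2, 9 without untreated library A of run 1, and 8 without library A of run 3 at 6 h. Scaling the promoter-proximal counts by factors from gene bodies lowered the median change of all transcripts to -0.17, -0.23 and -0.23 at 2, 6 and 24 h and left 0 rises and 2, 3 and 0 falls among members, so the split between rises and falls depends on the scaling.

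ZNF827 and ZNF219 were called near their promoters at each time. ZNF827 (NM_178835, chromosome 4, 146681888 to 146859607) recruits the NuRD remodeller to telomeres in cells that maintain them without telomerase. Its promoter-proximal region held 845, 778, 936, 918 and 280.2 CPM at 0 h, 389.7, 380.2 and 436 CPM at 2 h, 410.1, 463, 79.8 and 201 CPM at 6 h and 362 and 383 CPM at 24 h. The untreated library of run 3 was below all treated ones of run 1 and run 2, so groups overlapped, while within each run treated libraries were below untreated ones (log2 changes at 6 h of -0.997 in run 3 and -1.09 in run 2). The changes were -1.13 ± 0.24, -1.04 ± 0.24 and -1.28 ± 0.30 at 2, 6 and 24 h (adjusted p = 0.014, 0.025 and 0.0381), set beside -0.39 ± 0.06, -0.28 ± 0.06 and -0.41 ± 0.07 in its gene body, and the difference between the regions did not pass (adjusted p = 0.143, 0.209 and 0.254). ZNF219, also described as a NuRD partner, had 63.6, 35.2, 55.8, 38.8 and 25.6 CPM at 0 h, 13.8, 23 and 25 CPM at 2 h, 17.5, 17.8, 8.93 and 11 CPM at 6 h and 21.1 and 17.6 CPM at 24 h near its promoter. Each treated library lay below each untreated one, and the changes were -1.30 ± 0.26, -1.50 ± 0.26 and -1.42 ± 0.33 at 2, 6 and 24 h (adjusted p = 0.0104, 0.00576 and 0.0329). Its gene body changed by 0.10 ± 0.16, 0.17 ± 0.15 and 0.26 ± 0.19, none of which passed. Of the 5 adaptors tested near promoters, ZNF827, ZNF219 and ZNF687 thus fell at 2 h, and ZNF827 and ZNF219 at 6 and 24 h, with list medians of -0.72, -0.56 and -0.77. Of all transcripts 2.17%, 1.44% and 0.782% fell there, with medians of -0.0018, 0.0071 and 0.0049. None of these 2 h falls was called without library B of run 1 at 2 h, and the list was chosen with earlier results of these data known. Each of the ZNF827 calls was lost when either run 2 library of its own time was left out.

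Other promoter-proximal falls at 2 h were those of ZNF35 (-2.13 ± 0.43) and ZNF280D (-1.54 ± 0.32). ZNF35 had 16.7, 14.6 and 13.3 CPM at 2 h and 83.4, 254, 29, 42 and 18.9 CPM at 0 h, where library B of run 1 stood far above the rest. ZNF280D had 40.6, 38.2 and 48.9 CPM at 2 h and 187, 173, 102, 135 and 91.2 CPM at 0 h, without overlap, and 55.6, 59.4, 176 and 74.9 CPM at 6 h, where the highest library was A of run 3. The remaining falls at 2 h, of ZNF630, ZNF197, ZNF518A, ZNF496, ZNF498, ZNF267, ZNF24 and ZNF687, ran from -1.45 to -0.72. At 6 h ZNF740, which overlaps CSAD, fell near its promoter (-1.10 ± 0.21, adjusted p = 0.00838; 22.1, 19.9, 28.2 and 26.9 CPM at 6 h and 51, 45.2, 54.2, 42.3 and 58.6 CPM at 0 h), while its gene body changed by 0.08 ± 0.11. ZNF485 fell there at 6 h as well (-1.11 ± 0.25), but had a change of -0.02 ± 0.26 at 2 h. ZNF770 at 24 h (-1.25 ± 0.31, adjusted p = 0.0489) was lost in most alternatives.

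Rises near promoters were those of ZNF251 and ZNF449 at 2 h, ZNF774 and ZNF815 at 6 h and ZNF774 at 24 h. ZNF251 had 163, 184 and 159.7 CPM at 2 h and 70.1, 85.5, 87.7, 99.8 and 83.1 CPM at 0 h (0.95 ± 0.17, adjusted p = 0.00623), and its gene body rose by 0.32 ± 0.05. ZNF774 had 12.7, 11.4, 27.9, 29.6 and 49.4 CPM at 0 h, 30.2, 40.03 and 31.3 CPM at 2 h, 50.9, 46.5, 101 and 94.5 CPM at 6 h and 53.2 and 53.6 CPM at 24 h. The 24 h libraries were above all untreated ones, whereas those of 6 h overlapped with the untreated library of run 3. Its promoter-proximal changes at 6 and 24 h (0.97 ± 0.21 and 1.10 ± 0.25) were close to those of its gene body, and each was lost without single libraries, run 2 libraries of its own time included. ZNF449 (0.84 ± 0.22) was lost without run 1.

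A change of the promoter-proximal region relative to the gene body was called for few members: 1 at 2 h (0.476% of 210, against 1.17% of 9980 transcripts), 2 at 6 h (0.952%, against 0.401%) and 1 at 24 h (0.476%, against 0.271%), by limma on log2 differences within a library. Of all transcripts 0.14% and 0.0802% moved up near the promoter relative to the gene body at 6 and 24 h, and 0.762% and 0.261% moved down at 2 and 6 h. ZNF678 lost gene-body reads, and its promoter-proximal changes did not pass the test. Its promoter-proximal region held 23, 15.1, 13, 14.5 and 9.47 CPM at 0 h, 9.65, 17 and 10.2 CPM at 2 h, 15.9, 22, 9.21 and 7.0 CPM at 6 h and 16.6 and 23.2 CPM at 24 h, with overlap between treated and untreated libraries at each time, and the difference from the gene-body change was 1.30 ± 0.25 at 6 h and 1.48 ± 0.30 at 24 h (adjusted p = 0.0345 and 0.0494). ZNF219 went the other way at 6 h (-1.62 ± 0.32, adjusted p = 0.0398), and so did ZNF498, now named ZSCAN25, at 2 h (-0.89 ± 0.20, adjusted p = 0.0432). Near the ZNF498 promoter the libraries held 35.4, 24.3 and 30.5 CPM at 2 h and 70.7, 71.4, 51.8, 49.7 and 44.5 CPM at 0 h, without overlap, and in its gene body 39.3, 40.5 and 43 CPM at 2 h and 36.4, 40.1, 47.6, 44.7 and 46.6 CPM at 0 h, with overlap. The summed calls ranged from 0 to 7 when single libraries were left out: 0 without untreated library A or B, 2 h library B, or 6 h library A or B of run 2, and 7 without untreated library A or 2 h library B of run 1.

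**Figure D5:**
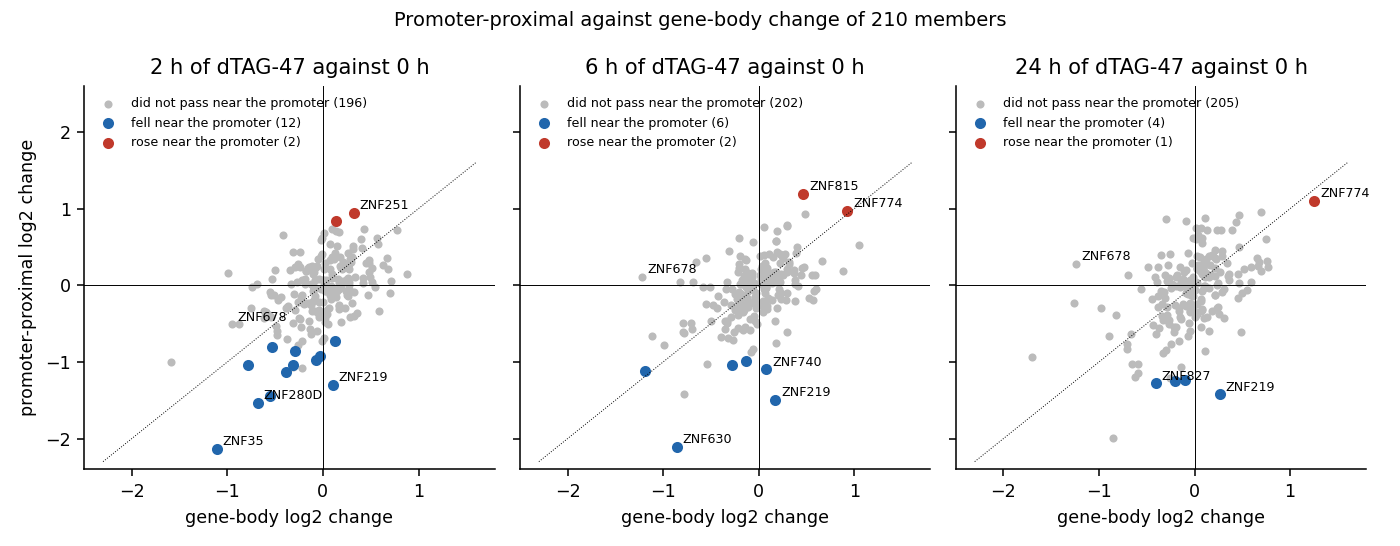
Promoter-proximal against gene-body log2 change of 210 members at 2, 6 and 24 h against 0 h, with the line of equal change dotted. Coloured points fell or rose near the promoter by edgeR's test; ZNF678 lies left of the line at 6 and 24 h (gene body -1.22 and -1.24, promoter 0.11 and 0.27), and ZNF219 below it.

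Between 24 h and 2 h, 3 members were higher and 2 lower in gene bodies, which is 2.33% of the 215 members, against 4.08% of all transcripts (3.03% higher and 1.05% lower). An unadjusted p under 0.05 in this edgeR contrast was reached by 38 of 215 members and by 1857 of 10304 transcripts. ZNF609 fell at 2 h and was higher at 24 h than at 2 h (0.37 ± 0.07, adjusted p = 0.0127), with 218 and 216 CPM at 24 h and 161, 169 and 166 CPM at 2 h. ZNF821, which overlaps ATXN1L, and ZNF438 were also higher at 24 h (0.52 ± 0.13 and 0.32 ± 0.08), and ZNF385C and ZNF717 were lower (-0.73 ± 0.19 and -0.60 ± 0.13). ZNF438 had 403 and 449 CPM at 24 h and 175, 339 and 328 CPM at 2 h, where the run 1 library, the first, was at the level of its own untreated ones. The count was 0 without either 24 h library or with no run term, 1 without 2 h library B of run 2, 2 without untreated library A or B of run 2, 14 without library B of run 1 at 2 h, 8 without untreated library A of run 1 and 40 in run 2 alone. It was 3 without 2 h library A of run 2, and likewise without either 6 h library of that run or library B of run 3 at 6 h.

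The 160 zinc finger genes of chromosome 19 gave 25 rises and 26 falls at 2 h (31.9%), 17 and 30 at 6 h (29.4%), and 13 and 8 at 24 h (13.1%), set beside 37 and 48 (39.5%), 31 and 36 (31.2%), and 24 and 27 (23.7%) among the members. Whether these shares differ was not tested. In the authors' deposited tables, at their adjusted p under 0.05, 35 of the 215 members rose and 52 fell in gene bodies at 2 h. At 6 h 35 rose and 39 fell, and at 24 h 24 and 30, while near promoters 0 rose and 5, 6 and 1 fell. All 10304 transcripts gave 2037 rises and 2088 falls in gene bodies at 2 h. At 6 h they gave 1431 and 1499, and at 24 h 1208 and 1096. Their rises and falls near promoters were 15 and 63, 5 and 88, and 9 and 29.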

How the data were processed

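PRO-seq counts of 10304 RefSeq transcripts on hg19 were read from 6 tables, 1 for each time and region (gene body or promoter-proximal). The authors deposited read counts per transcript and region for 14 libraries, per the file headers, and log2 fold changes, p-values and adjusted p-values beside them, of which the calls were counted as deposited. Per the submitters' processing notes, the tools were Bowtie2 2.2.2, Trimmomatic 0.32, HOMER, SAMtools, DESeq2 and DESeq, on hg19. Counting windows, strand and filters: not given in the sources used here. The 84 columns of normalized values were not used.

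All 14 libraries entered 1 model per region with time and run as terms (edgeR 4.0.16 on R 4.3.3, TMM, filterByExpr, quasi-likelihood test, Benjamini-Hochberg adjustment over all transcripts, 0.05). Log2 differences between regions within a library were tested with limma 3.58.1 (prior count 2). Errors after ± are SE for log2 changes and SD for levels. TMM scales each library on its own reads, so every rise or fall is relative to the other transcripts. The edgeR fit was tested on simulated counts in which runs differed in level but not in change. The limma fit was tested on simulated log2 differences, and the step from counts to these differences was not tested. Members were matched to RefSeq (215 of 215, 208 by accession, 16 under another current symbol), and 177 had a promoter. KRAB boxes were found with a profile built from 57 members (E-value up to 1e-05), which replaced a fixed pattern after that was seen to miss known boxes. Alternatives were another tool (DESeq2 1.42.0), other size factors, filters, thresholds, terms and runs, and leaving out each library. Leaving out run 1 or run 3 was added after seeing the data. The members, lists and tests were chosen with earlier results of these data known. Members are named where they had the 6 largest rises or falls per time in gene bodies or the 3 largest near promoters among called members whose mean normalized count reached 100, were called at all times, lead a list by adjusted p, have the highest or lowest level per length, or describe a genomic group. Others are named to complete a count.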

Additional observations from a re-analysis of the deposited data

Results flagged for a closer look

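Of 114 groups of 4 or 5 libraries, 9 held 1 library far from the others by Dixon's test, and chance gives about 1 in 20. In gene bodies these were ZNF630 at 6 h (library B of run 2 at 3.24 CPM, the others at 4.14 to 4.21), ZNF711 at 6 h (library B of run 2 at 12.9 CPM, the others at 10.6 to 10.9), and ZNF740 at 0 h (library B of run 1 at 123 CPM, the others at 76.8 to 87.5). ZNF764 was high in run 3 both at 6 h (library A at 27.9 CPM, the others at 21.5 to 22.3) and at 0 h (18.7 CPM, the others at 13.2 to 13.8). Near promoters, ZNF280D stood at 176 CPM in library A of run 3 at 6 h, the others at 55.6 to 74.9. ZNF35 stood at 17.02 CPM in library B of run 2 at 6 h, the others at 9.49 to 10.8, and at 254 CPM in library B of run 1 at 0 h, the others at 18.9 to 83.4. ZNF827 stood at 280.2 CPM in the untreated library of run 3, the others at 778 to 936.

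The change differed between 24 h and 2 h for 5 members (contrast within the edgeR model, adjusted over all transcripts). ZNF438 had a log2 change of 0.26 at 24 h and -0.06 at 2 h (difference 0.32, adjusted p = 0.0345). ZNF609 had -0.18 at 24 h and -0.54 at 2 h (difference 0.37, adjusted p = 0.0127), and ZNF821 had 0.15 and -0.37 (difference 0.52, adjusted p = 0.0351). The differences were negative for ZNF385C, with -1.26 at 24 h and -0.53 at 2 h (difference -0.73, adjusted p = 0.0449), and for ZNF717, with -0.34 and 0.25 (difference -0.60, adjusted p = 0.0218). All 24 h libraries are of run 2.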

How the results depend on the processing

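No paired analysis was possible because the columns carry no replicate number that ties libraries of different times. For gene bodies the counts of called members were 85 at 2 h, 67 at 6 h and 51 at 24 h. They became 46, 33 and 24 at an adjusted p under 0.01 and 20, 20 and 24 with a change of at least 1.5-fold. With no run term they were 33 at 2 h and 31 at 24 h, with only the groups compared 44 at 2 h, and in run 2 alone 93 at 24 h. Without run 1 the 2 h count was 53, and without run 3 the 6 h count was 39. Leaving out single libraries gave 41 to 93, 40 to 78 and 15 to 58.

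Near promoters the counts were 14, 8 and 5. They became 1, 3 and 0 under 0.01, 2, 3 and 0 with gene-body size factors, and 34, 21 and 36 in run 2 alone. With no run term they were 0 at 2 h and 0 at 24 h, and with only the groups compared 8 at 2 h and 0 at 24 h. DESeq2 gave 16 at 6 h and 8 at 24 h, and a mean count of at least 100 gave 5 and 2. Without run 1 they were 9, 20 and 10, and without run 3 they were 2 at 6 h and 8 at 24 h. Single libraries left out gave 2 to 18, 1 to 15 and 0 to 9.

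For 24 h against 2 h (5 members), the count was 0 under 0.01, 0 with no run term, 40 in run 2 alone, 20 without run 1, 2 without run 3 and 0 to 14 without single libraries. For the difference between regions (4 calls over the 3 times), it was 0 under 0.01, 2 with no run term, 26 in run 2 alone, 10 without run 1 and 0 to 7 without single libraries. The cause of these shifts was not tested. For the 48 members named by the rule, 2319 of 2562 alternative values kept the call and 243 lost it, and none changed direction. The rule picks mainly by size or adjusted p in these same libraries, which favours kept calls and directions, so this is no independent check. The stricter thresholds are not among these values. With no run term 74 calls were kept and 37 lost, and with gene-body size factors near promoters 2 and 10. Of the 111 calls of the named members 62 were kept without any single library. Promoter-proximal totals were 1667950 to 7171601 reads, below those of gene bodies (11182894 to 34209362), and what this depth limits was not tested.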
